A study of Homo sapiens with 12 samples.

Results

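The EPH receptors and ephrins described here are 10 genes, chosen by symbol from the 25528 rows of the deposited expression table. All 10 were found. They comprise 6 receptors (EPHB2, EPHB3, EPHB4, EPHA1, EPHA2 and EPHA4) and 4 ligands (EFNB1, EFNB2, EFNA1 and EFNA4). The RNA-seq libraries, 12 in 4 groups of 3, come from HT-29, a human cell line grown from a colon adenocarcinoma. HT-29 is labelled APC mutant, so every group, controls included, carries an altered APC gene. APC normally helps to send beta-catenin, the transcriptional effector of WNT signalling, to its destruction. In the overexpression arm, lentivirus carried an open reading frame for GFP (the control) or for CTNNB1, the beta-catenin gene, and cells were collected 2 days after infection. In the knockdown arm, lentivirus delivered either shNT1, a control hairpin, or shAPC, which targets APC. Doxycycline at 2 µM induced the hairpins, and collection followed 1 day later. The labels give the hairpin against APC under 1 name and do not say whether the replicates were separate cultures, so the p-values below measure the spread between these libraries, which may be technical. The study asked how WNT hyperactivation changes expression in these cells.

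EPH receptors are receptor tyrosine kinases that bind membrane-bound ephrins on a neighbouring cell and signal in both directions, mostly to repel or sort cells. EPHB receptors bind chiefly B ephrins, which cross the membrane, and EPHA receptors bind chiefly A ephrins, which are held by a lipid anchor. In the intestine, EPHB2 and EPHB3 are WNT target genes that are highest at the crypt base, while EFNB1 and EFNB2 rise toward the differentiated cells, and these opposed gradients keep the cell types in position along the crypt. In colorectal tumours EPHB receptors are known to restrain invasion.

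The libraries were close to each other and depth could not be read from them. Expression is in TPM, a relative transcript level that corrects for transcript length, so levels of different genes can be compared. TPM keeps no read depth. Per library, 14756 to 16186 genes were above 0, and Pearson correlations of log2(TPM + 1) within groups ran from 0.991 to 0.997 over 11741 genes. APC, the gene targeted by the hairpin, fell from a mean of 16.4 TPM in shNT1 to 5.99 TPM in shAPC (log2 fold change -1.32, limma adjusted p = 6.14e-06). The mean of CTNNB1 itself was 146 TPM under GFP and 160.1 TPM under CTNNB1, a difference of 0.13 on the log2 scale that missed the threshold (limma adjusted p = 0.0587). Of 10 colon epithelium markers, 7 had a mean of at least 1 TPM, led by KRT18, KRT8 and EPCAM. CDX1, CDX2 and CDH17 did not exceed 0.955 TPM in any library. Of 11 markers of fibroblasts, endothelium and leukocytes, CD68, which epithelial cells also express, was the only one with a mean of at least 1 TPM. The other 10 summed to between 0.734 and 1.85 TPM per library, and CD3E was at 0 throughout. The sum of the 11 moved with the groups, mostly through CD68, from 28.2 to 28.8 TPM in GFP to 13.2 to 15.2 in CTNNB1, and from 14.5 to 16.2 in shNT1 to 7.03 to 9.33 in shAPC, and its part in the results was not tested. The epithelial sum ran from 10826 to 10966 TPM in GFP, 12265 to 12403 in CTNNB1, 8682 to 10452 in shNT1 and 8595 to 9519 in shAPC. The member genes moved with the library inside groups: GFP replicate 3 was the highest of its group for 8 of the 9 expressed members, shAPC replicate 2 for 8, CTNNB1 replicate 2 for 7, while shAPC replicate 3 was the lowest for 8 and GFP replicate 1 for 8. These counts cover the members only and give no share over all genes. The part of this movement in the results was not tested beyond leaving each library out.

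EPHB2 and EPHB3, the crypt-base receptors, rose in both arms, EPHB2 by more than EPHB3. Both are protein-coding genes on the forward strand of GRCh38, EPHB2 (ENSG00000133216) at chr1:22710839-22921500 and EPHB3 (ENSG00000182580) at chr3:184561784-184582409 in GENCODE 29. The 250 bases before their RefSeq start (GRCh38.p14, forward strand) are shown because these members moved together, with capitals marking GC boxes (GGGCGG or its reverse complement CCGCCC).
EPHB2, chr1:22710588-22710837: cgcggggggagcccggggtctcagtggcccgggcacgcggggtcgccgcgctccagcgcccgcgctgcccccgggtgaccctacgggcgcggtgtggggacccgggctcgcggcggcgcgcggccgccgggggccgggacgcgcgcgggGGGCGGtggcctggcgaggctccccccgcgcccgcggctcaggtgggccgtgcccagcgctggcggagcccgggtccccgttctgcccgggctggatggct
EPHB3, chr3:184561535-184561784: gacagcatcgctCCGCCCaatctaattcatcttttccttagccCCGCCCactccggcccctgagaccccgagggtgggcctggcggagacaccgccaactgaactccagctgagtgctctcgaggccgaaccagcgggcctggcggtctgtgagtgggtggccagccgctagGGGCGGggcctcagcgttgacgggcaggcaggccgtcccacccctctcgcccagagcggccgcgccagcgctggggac
EPHB2 has 1 marked GC box and a GC content of 84.8% in this stretch, and EPHB3 has 3 and 70.0%. A TCF/LEF word, taken as CTTTG followed by 2 bases that are each A or T and searched on both strands from 250 bases before to 50 after the start, was in neither window. Such a word was in 13.8% of all 35116 promoter windows of that length and in the window of 1 of the 10 members, EFNA4. GC boxes were in 45.0% of all windows and in a window of all 10 members. The word in EFNA4 overlaps no GC box. A match is a description only, and its absence says only that the letters are not in this window.

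EPHB2 was weakly expressed in the controls. It measured 1.90, 1.95 and 2.30 TPM in the 3 GFP libraries and 5.53, 5.75 and 5.29 TPM with CTNNB1. All CTNNB1 libraries lay above all GFP libraries, and the means were 2.05 ± 0.222 and 5.52 ± 0.228 TPM (SD, n = 3 each), an increase of 169.6%. In the knockdown arm EPHB2 measured 1.68, 1.47 and 1.62 TPM in shNT1 and 4.88, 5.26 and 4.27 TPM in shAPC. Again the groups did not overlap, with means of 1.59 ± 0.109 and 4.81 ± 0.497 TPM and an increase of 202%. Fold changes were tested with limma on log2(TPM + 1), which understates the change of a gene at this level. On that scale EPHB2 rose by 1.10 (SE 0.09, limma adjusted p = 5.07e-05) and by 1.16 (SE 0.11, limma adjusted p = 6.51e-05), and with 0.1 added in place of 1 the values were 1.39 and 1.54. The order of the group means was shNT1, GFP, shAPC and CTNNB1. Each neighbouring pair was free of overlap, though shAPC and CTNNB1 were separated only by 5.26 against 5.29 TPM. Across arms the groups also differ in vector, collection day and doxycycline, which cannot be told apart from the perturbations.

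EPHB3 had a higher starting level and a smaller rise. It measured 13.8, 13.6 and 15.5 TPM in GFP and 24.7, 29.2 and 23.4 TPM with CTNNB1, with means of 14.3 ± 1.06 and 25.8 ± 3.03 TPM (SD, n = 3 each) and an increase of 79.9%. In shNT1 it measured 13.7, 14.1 and 16.1 TPM and in shAPC 22.7, 24.9 and 18.4 TPM, with means of 14.6 ± 1.27 and 22.0 ± 3.32 TPM and an increase of 50.4%. In each arm the perturbed libraries lay above the controls, and the GFP and shNT1 libraries overlapped each other, as did the CTNNB1 and shAPC libraries. On the log2 scale EPHB3 rose by 0.80 (SE 0.09, limma adjusted p = 0.000218) in the CTNNB1 arm and by 0.55 (SE 0.10, limma adjusted p = 0.00489) in the shAPC arm. The lowest perturbed value belonged to shAPC replicate 3, and without that library the shAPC value was 0.67 (limma adjusted p = 0.0015). Over all fits with a library left out it went down to 0.46, with a limma adjusted p up to 0.033. Under the other settings the limma adjusted p went up to 0.037. In bulk RNA, a change in the share of cells that express a gene and a change in the RNA per cell cannot be told apart.

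EPHB4, the third B receptor and better known from blood vessel growth, was the most abundant receptor of the set and did not pass the test in either arm. The gene (ENSG00000196411) lies on the reverse strand at chr7:100802565-100827521. It measured 108, 108 and 116 TPM in GFP and 107, 121 and 110 TPM with CTNNB1, and these groups overlapped (log2 fold change 0.02, 95% interval -0.10 to 0.15, limma adjusted p = 0.780). In shNT1 it measured 116, 118 and 117 TPM and in shAPC 104, 109 and 94.4 TPM. Here every shAPC library lay below every shNT1 library. The log2 fold change of -0.19 (95% interval -0.32 to -0.05) narrowly missed the threshold (limma adjusted p = 0.0501). It passed at -0.23 without shAPC replicate 2 (limma adjusted p = 0.039) and, at -0.19, in 1 fit of all 4 groups and with a minimum mean of 5 TPM (limma adjusted p = 0.034 and 0.038). EPHB4 supplied between 43.8% and 51.0% of the summed TPM of the 6 member receptors.

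**Figure D1:**
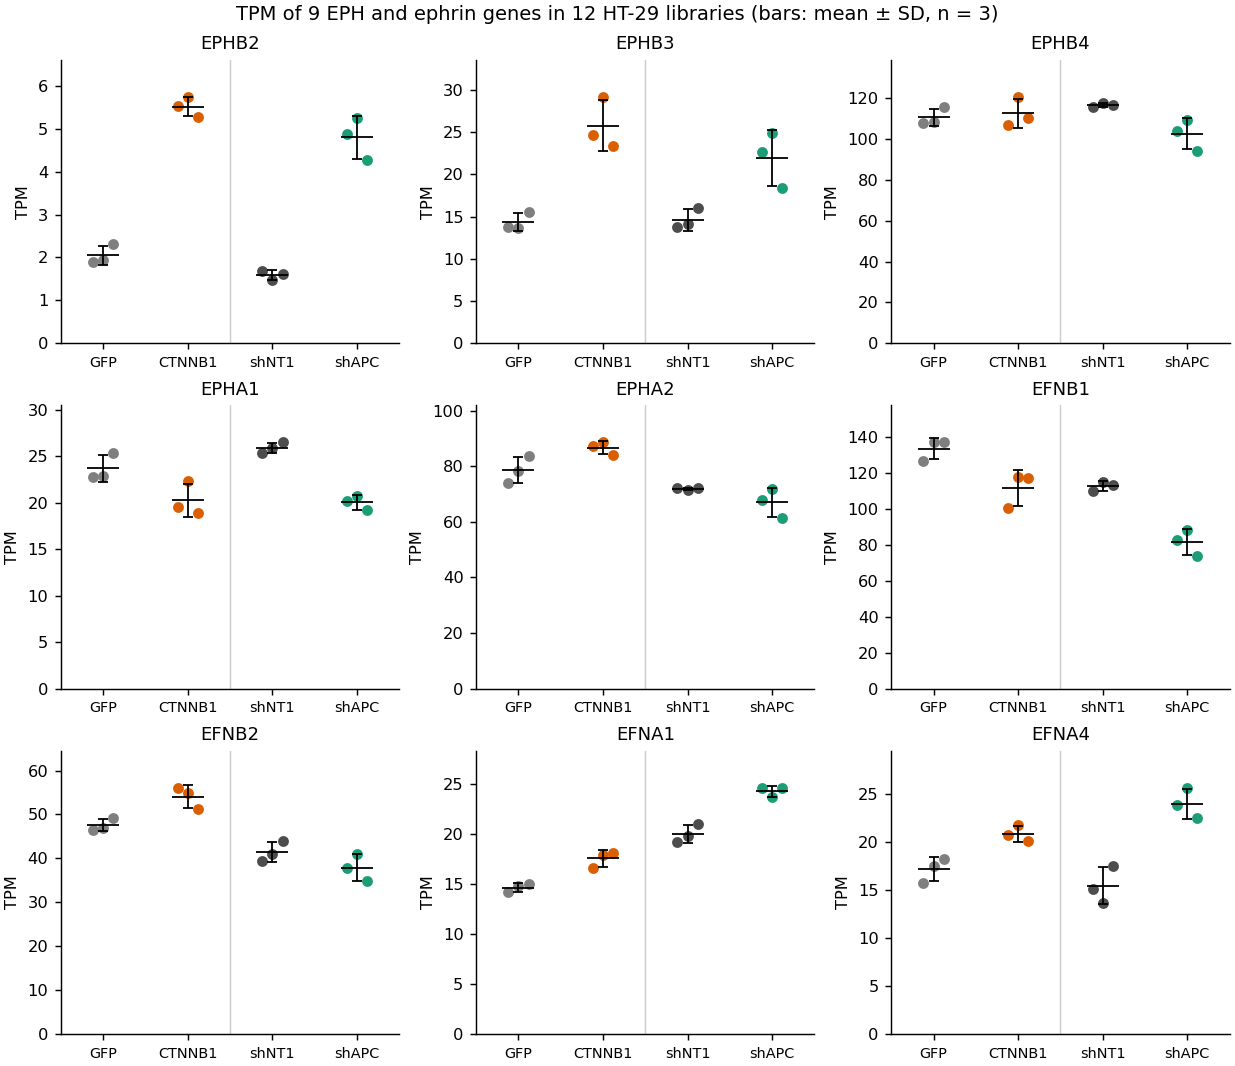
TPM (y axis, linear, from 0) of the 9 expressed members in each of the 12 libraries, by group (x axis); points are libraries, the horizontal bar is the mean and the whiskers are the SD (n = 3). EPHB2 and EPHB3 libraries lie above their controls in both arms, EFNB1 and EPHA1 libraries lie below them, and EPHA4 is left out because no library exceeded 0.134 TPM.

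Among the EPHA receptors, EPHA1 fell in the shAPC arm, EPHA2 passed in neither arm and EPHA4 was close to 0. EPHA1 (ENSG00000146904, reverse strand, chr7:143390289-143408892), an epithelial receptor, measured 25.3, 25.9 and 26.5 TPM in shNT1 and 20.2, 20.7 and 19.2 TPM in shAPC. All shAPC libraries were lower, and EPHA1 differed by -0.35 on the log2 scale (SE 0.06, limma adjusted p = 0.00244). In the CTNNB1 arm the values were 22.8, 22.9 and 25.4 TPM in GFP and 19.5, 22.3 and 18.9 TPM with CTNNB1. These groups did not overlap either, but the difference of -0.22 (SE 0.08) missed the threshold (limma adjusted p = 0.0637). With median-ratio scaling of the libraries it was -0.29 (limma adjusted p = 0.023), and without CTNNB1 replicate 2 it was -0.29 (limma adjusted p = 0.036). Exons of EPHA1 share 82 bases with ZYX, an abundant gene on the opposite strand at 75.3 to 101 TPM, and whether counting used strand is not given in the sources used here.

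EPHA2 (ENSG00000142627, reverse strand, chr1:16124337-16156087), an epithelial receptor often raised in tumours, was the second most abundant receptor. It measured 74.0, 78.1 and 83.6 TPM in GFP and 87.2, 88.6 and 84.1 TPM with CTNNB1, groups that did not overlap by a narrow margin. The log2 fold change was 0.14 (95% interval 0.02 to 0.26, limma adjusted p = 0.0961). In shNT1 the 3 values were 72.3, 71.5 and 72.0 TPM, and in shAPC they were 67.9, 71.7 and 61.4 TPM, so the groups overlapped (-0.10, 95% interval -0.24 to 0.03, limma adjusted p = 0.261). EPHA4 (ENSG00000116106, reverse strand, chr2:221418027-221574202), best known from the nervous system, lay between 0 and 0.134 TPM over the 12 libraries. It fell under the minimum mean of 1 TPM and was not tested.

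EFNB1, like EFNB2 a B ephrin of the differentiated compartment, fell in both arms and was the most abundant ligand of the set. The gene (ENSG00000090776) lies on the forward strand at chrX:68828997-68842147. The 250 bases before its RefSeq start are given for comparison with the receptors, with the same marking.
EFNB1, chrX:68828771-68829020: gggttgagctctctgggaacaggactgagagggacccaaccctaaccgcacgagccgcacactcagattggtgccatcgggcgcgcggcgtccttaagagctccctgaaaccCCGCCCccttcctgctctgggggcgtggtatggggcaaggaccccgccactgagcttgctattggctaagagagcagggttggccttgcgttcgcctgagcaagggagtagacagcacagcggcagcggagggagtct
This stretch has 1 marked GC box and a GC content of 63.6%, and no TCF/LEF word was in its window. EFNB1 measured 126, 137 and 137 TPM in GFP and 100, 117 and 117 TPM with CTNNB1, and 110, 115 and 113 TPM in shNT1 and 82.6, 88.3 and 73.9 TPM in shAPC. Every perturbed library lay below its controls. The means went from 133 ± 5.92 to 111 ± 9.79 TPM and from 113 (lowest 110, highest 115) to 81.6 ± 7.28 TPM (SD, n = 3 each). EFNB1 fell by 0.26 (SE 0.07, limma adjusted p = 0.0217) in the CTNNB1 arm and by 0.46 (SE 0.07, limma adjusted p = 0.00110) in the shAPC arm on the log2 scale. The first of these was lost without GFP replicate 2 (-0.24, limma adjusted p = 0.087) or GFP replicate 3 (-0.24, limma adjusted p = 0.084). GFP had the highest mean of the 4 groups and did not overlap shNT1, while CTNNB1 and shNT1 overlapped.

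EFNB2, the other B ephrin of the set and the main partner of EPHB4 in vessels, did not follow EFNB1. The gene (ENSG00000125266) lies on the reverse strand at chr13:106489731-106535662. It measured 46.5, 47.0 and 49.2 TPM in GFP and 56.1, 54.9 and 51.1 TPM with CTNNB1, all of the latter higher. In shNT1 it measured 39.3, 40.9 and 43.9 TPM and in shAPC 37.9, 41.0 and 34.8 TPM, which overlapped. EFNB2 rose in the CTNNB1 arm by 0.18 (SE 0.05, limma adjusted p = 0.0391), and its shAPC value was -0.13 (95% interval -0.28 to 0.03, limma adjusted p = 0.229). The rise was among the weakest calls of the set: it was lost under 6 of 8 other settings, among them median-ratio scaling (0.11, limma adjusted p = 0.11), and without GFP replicate 1 (0.17), GFP replicate 2 (0.17), GFP replicate 3 (0.20) or CTNNB1 replicate 2 (0.17). Exons of EFNB2 share 1313 bases, 26.2% of their length, with AL138689.2 on the opposite strand, a gene with no value here.

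The A ephrins EFNA1 and EFNA4 rose in both arms. EFNA1 (ENSG00000169242, forward strand, chr1:155127460-155134857), a ligand of EPHA2 also known as an early response gene to inflammatory signals, measured 14.2, 14.8 and 14.9 TPM in GFP and 16.6, 17.9 and 18.1 TPM with CTNNB1. In the other arm it measured 19.2, 19.8 and 21.0 TPM in shNT1 and 24.6, 23.6 and 24.6 TPM in shAPC. The 4 groups were separate from each other, in the order GFP, CTNNB1, shNT1 and shAPC. Its rise was 0.25 (SE 0.06, limma adjusted p = 0.0199) in the CTNNB1 arm and 0.27 (SE 0.06, limma adjusted p = 0.0114) in the shAPC arm, on the log2 scale.

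EFNA4 (ENSG00000243364, forward strand, chr1:155063731-155069553) holds the TCF/LEF word of the set, which begins 9 bases after the RefSeq start and is capitalised here.
EFNA4, chr1:155063740-155063766: ccctcttcaCTTTGTAcctttctctcc
It measured 15.8, 17.5 and 18.3 TPM in GFP and 20.7, 21.8 and 20.1 TPM with CTNNB1, and 15.2, 13.7 and 17.5 TPM in shNT1 and 23.8, 25.7 and 22.6 TPM in shAPC. The perturbed libraries lay above their controls in each arm. EFNA4 rose by 0.27 (SE 0.07, limma adjusted p = 0.0214) with CTNNB1 and by 0.61 (SE 0.09, limma adjusted p = 0.00119) with shAPC on that scale. The CTNNB1 values of both A ephrins lost their calls with median-ratio scaling (EFNA1 0.18, limma adjusted p = 0.083, and EFNA4 0.20, limma adjusted p = 0.059). Without GFP replicate 1, GFP replicate 2 or CTNNB1 replicate 2 neither was called, EFNA1 being 0.22, 0.25 and 0.23 and EFNA4 0.21, 0.28 and 0.24. EFNA1 was also not called without GFP replicate 3 (0.26) in that arm and without shNT1 replicate 1 in the shAPC arm (0.24, limma adjusted p = 0.053). EFNA4 shares 189 exonic bases with AL691442.1 on the same strand, a gene with no value here.

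In the CTNNB1 arm 9 of the 10 members could be tested, and 6 were called at an adjusted p under 0.05, 5 higher and 1 lower. Over all 11624 genes tested, 23.5% were called, 16.3% higher and 7.16% lower. Median-ratio scaling and quantile normalization each left 4 members called, 2 higher (EPHB2 and EPHB3) and 2 lower (EFNB1 and EPHA1), and moved the higher share of all calls from 69.5% to 46.1% and 53.0%. There were 3 members called without GFP replicate 1, 2 without GFP replicate 2 and 3 without GFP replicate 3. Calls over all genes fell in these fits too, from 2730 to 1617, 1499 and 1705. The groups did not overlap for 8 of the 9 members, 6 above and 2 below, against 43.2% of all genes, 30.2% above and 13% below. The median log2 fold change was 0.18 over the 9 members and 0.06 over all genes.

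In the shAPC arm 6 of 9 members were called, 4 higher and 2 lower. Over all 11834 genes tested, 22.1% were called, 7.24% higher and 14.9% lower. Both rescalings, by median ratio and by quantiles, gave 6 member calls, also 4 higher and 2 lower, while the higher share of all calls moved from 32.8% to 44.3% and 49.4%. The groups did not overlap for 7 of the 9 members, 4 above and 3 below, against 40.9% of all genes, 14.5% above and 26.4% below. The member median was -0.10 and that of all genes -0.04.

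**Figure D2:**
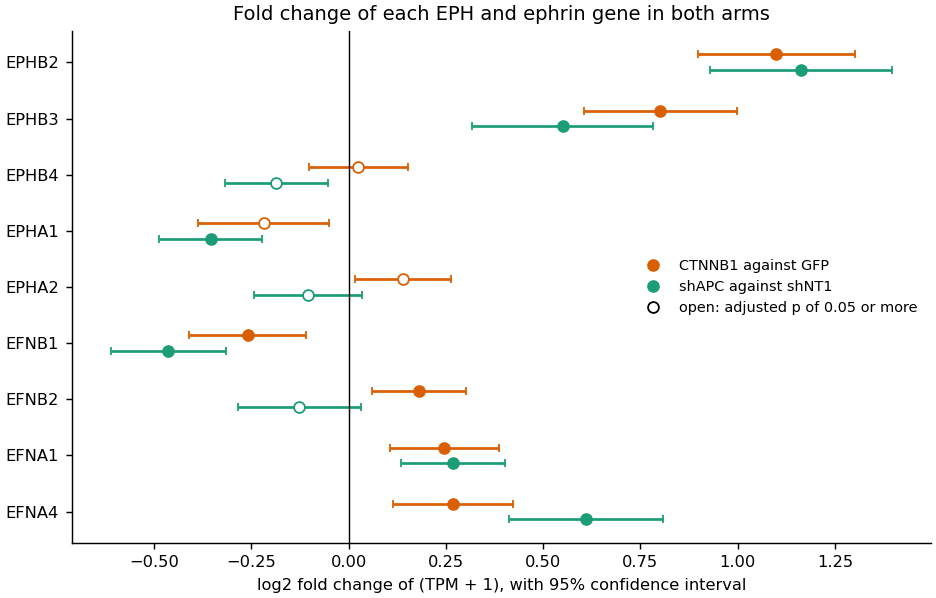
Log2 fold change of TPM + 1 (x axis) of each tested member (y axis) with its 95% confidence interval, in the CTNNB1 arm (orange) and the shAPC arm (green); filled points had a limma adjusted p under 0.05. EPHB2 and EPHB3 lie farthest to the right in the CTNNB1 arm at 1.10 and 0.80, and EFNB1 lies left of 0 in both arms at -0.26 and -0.46.

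The authors' deposited limma tables call the same 6 members in the shAPC arm and only EPHB2 and EPHB3 in the CTNNB1 arm. The authors' deposited table for CTNNB1 has EPHB2 at 1.36 (adjusted p = 0.00076) and EPHB3 at 0.78 (adjusted p = 0.0091). The ligands missed an adjusted p of 0.05 in the authors' deposited table for that arm, with EFNB1 at -0.33 (0.079), EFNB2 at 0.11 (0.086), EFNA1 at 0.19 (0.16) and EFNA4 at 0.21 (0.13), adjusted p in parentheses. In the authors' deposited table for APC all 6 members called here passed, EPHB2 at 1.62 (0.0014), EPHB3 at 0.62 (0.03), EPHA1 at -0.33 (0.0041), EFNB1 at -0.43 (0.014), EFNA1 at 0.32 (0.0076) and EFNA4 at 0.67 (0.011).

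The 2 perturbations were then compared in 1 fit of all 12 libraries, by subtracting a member's shAPC effect from its CTNNB1 effect. EFNB2 alone was called, with a difference of 0.31 (SE 0.09, limma adjusted p = 0.0348), where 16.1% of all 11741 genes were called, 13.3% with a positive and 2.76% with a negative difference. The median difference of all genes was 0.11 and became 0.00 under median-ratio scaling, where the positive share of all calls went from 82.8% to 54.7%, EFNB2 was not called (0.20, limma adjusted p = 0.11) and EFNA4 was (-0.45, limma adjusted p = 0.018). EFNA4 was at -0.34 (limma adjusted p = 0.0637) on TPM as deposited, the shAPC rise being the larger. The EFNB2 call was lost without GFP replicate 1 or 2, CTNNB1 replicate 1 or 2, shNT1 replicate 2 or 3, or shAPC replicate 3, with differences from 0.25 to 0.31. EPHA2, at 0.24 (limma adjusted p = 0.0620), was called without GFP replicate 3 (0.29, limma adjusted p = 0.046) or shAPC replicate 2 (0.29, limma adjusted p = 0.04). The EPHB2 difference was -0.06 with a 95% interval of -0.34 to 0.21, and the EPHB3 difference was 0.25 with an interval of -0.07 to 0.57. These intervals leave room for unequal responses of that size.

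Summed transcript levels show how receptors and ligands shifted against each other, by sums chosen after the values had been seen and given without a test. EPHB2 and EPHB3 together made up 12.9% ± 0.438 of the TPM of the 3 B receptors in GFP, 21.7% ± 0.962 with CTNNB1, 12.2% ± 0.845 in shNT1 and 20.6% ± 1.16 in shAPC (SD, n = 3 each). All 3 B receptors, EPHB4 included, summed to 127 ± 5.51 TPM in GFP and 144 ± 10.1 with CTNNB1, without overlap, and to 133 ± 1.61 in shNT1 and 129 ± 11.4 in shAPC, which overlapped. The 6 member receptors summed to 229 ± 11.5, 250.95 ± 13.5, 231 ± 2.07 and 217 ± 17.4 TPM in GFP, CTNNB1, shNT1 and shAPC. The A ephrins EFNA1 and EFNA4 summed to 31.8 ± 1.71, 38.4 ± 1.21, 35.4 ± 2.67 and 48.3 ± 1.10 TPM in that order. The summed TPM of EFNB1 and EFNB2 was 181 ± 6.90 in GFP, 165 ± 8.30 with CTNNB1, 154 ± 4.43 in shNT1 and 119 ± 10.3 in shAPC. The ratio of the EPHB2 and EPHB3 sum to this ligand sum ran from 0.0849 to 0.0960 over the GFP libraries and from 0.171 to 0.203 over the CTNNB1 libraries. It ran from 0.0997 to 0.112 in shNT1 and from 0.208 to 0.233 in shAPC. In each arm the perturbed libraries had the higher ratio with no overlap. EPHB2 and EPHB3 had each been seen above their controls when they were chosen, so this separation is a description and no test. EFNB1 outweighed EFNB2 by 2.80 ± 0.0983 to 1 in GFP and 2.72 ± 0.126 in shNT1, against 2.07 ± 0.256 with CTNNB1 and 2.15 ± 0.0291 in shAPC.

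**Figure D3:**
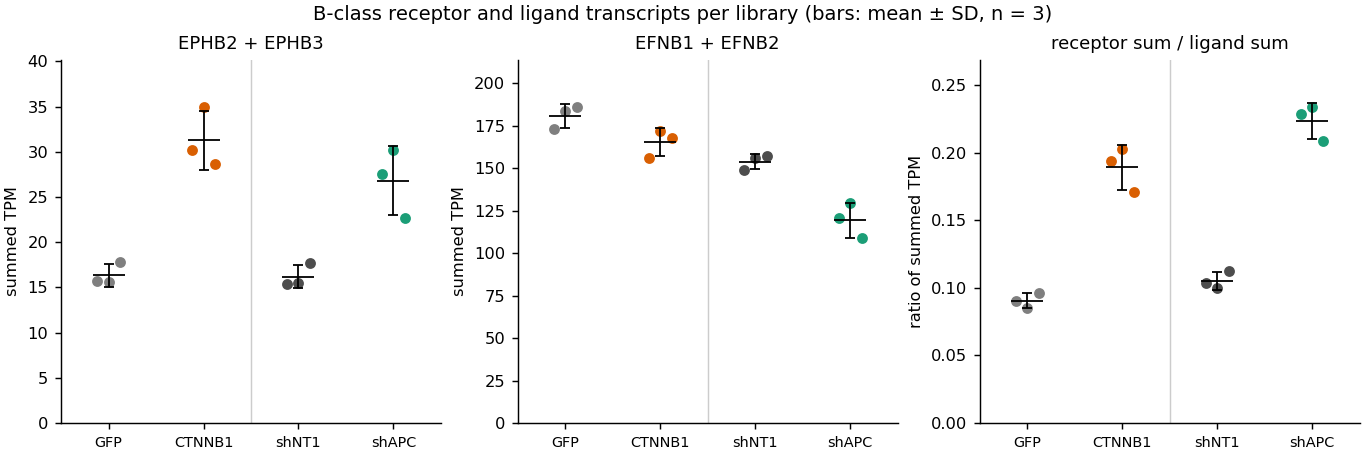
Summed TPM of EPHB2 and EPHB3 (left), summed TPM of EFNB1 and EFNB2 (middle) and their ratio (right) in each library, by group; points are libraries, bars the mean and whiskers the SD (n = 3), with y axes from 0. The ratio lies between 0.171 and 0.233 in the perturbed libraries and between 0.0849 and 0.112 in the controls. The genes summed were chosen after their values had been seen.

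Correlations over the 12 libraries describe which members varied together. The points share 4 groups, so these values mostly carry the differences between groups. EPHB2 and EPHB3 had a Pearson r of 0.947 on log2(TPM + 1), EPHB2 and EFNA4 0.881, EPHB2 and EPHA1 -0.855, and EPHB2 and EFNB1 -0.535. EPHA2 and EFNB2 had an r of 0.967, the highest of all pairs, while EFNB1 and EFNA1 had -0.868. Among 9439 genes with a mean of at least 5 TPM, those most like EPHB2 were WNT11, a WNT ligand (r = 0.992), the serine protease gene PRSS23 (0.988) and the small GTPase gene RHOB (0.972). Those most like EPHB3 were WDR6 (0.979), the taurine transporter gene SLC6A6 (0.973) and the protease gene BACE2 (0.97). Those most like EFNB2 were PPL, which encodes periplakin (0.989), the planar polarity gene VANGL1 (0.984) and ABHD2 (0.979). WNT11 averaged 3.28 TPM in GFP, 23.4 with CTNNB1, 1.53 in shNT1 and 18.3 in shAPC. It passed the minimum of 5 TPM only through the perturbed libraries.

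Of the other 12 EPH and ephrin genes, 4 were expressed well enough to be tested: EPHB6, EFNA2, EFNA3 and EFNA5. In the CTNNB1 arm limma called 0 of these 4 and 23.5% of all genes, and 0 of the 4 had an unadjusted p under 0.05. In the shAPC arm 2 of the 4 and 22.1% of all genes were called, counts too small to set against these shares. EFNA5, an A ephrin known from axon guidance, fell there, and EFNA3 rose. EFNA5 measured 17.3, 16.5 and 17.2 TPM in shNT1 and 12.5, 14.4 and 10.6 TPM in shAPC (log2 fold change -0.43, SE 0.10, limma adjusted p = 0.0120, and 0.056 with no filter on low values). EFNA3 measured 1.36, 1.38 and 1.26 TPM in shNT1 and 2.45, 2.58 and 1.60 TPM in shAPC (0.45, SE 0.14, limma adjusted p = 0.0451). The EFNA3 call was lost under 4 of 7 other settings (limma adjusted p up to 0.088), without any of shNT1 replicates 1, 2 and 3 (0.45, 0.46 and 0.42) and without shAPC replicate 1 (0.39) or 2 (0.36). Of its exonic bases, 853, or 44.7%, are shared with AL691442.1. EFNA2 was at -0.30 (limma adjusted p = 0.0936) and was called at -0.45 without shNT1 replicate 3 (limma adjusted p = 0.0014). EPHA10 lay between 0.179 and 0.580 TPM. EPHA3, EPHA5, EPHA6, EPHA7, EPHA8, EPHB1 and EFNB3 did not exceed 0.136 TPM in any library.

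A list of 47 genes that act with EPH receptors and ephrins, such as adaptors, kinases, proteases and phosphatases, was described next. In the CTNNB1 arm 42 were tested and 11 called, 10 higher and 1 lower. Over all genes tested there, 23.5% were called, 16.3% higher and 7.16% lower. The median log2 fold change was 0.07 against 0.06 over all genes. Under median-ratio scaling the split was 7 higher and 4 lower, and 46.1% of all calls were higher. In the shAPC arm 19 of 42 were called, 3 higher and 16 lower. Over all genes tested there, 22.1% were called, 7.24% higher and 14.9% lower, and the partner median was -0.13 against -0.04. Under quantile normalization the split there was 6 and 12, and 49.4% of all calls were higher. Without shAPC replicate 2, or without shAPC replicate 3, 11 partner genes were called in the shAPC arm. Calls over all genes fell there from 2615 to 1646 and 1484. Without GFP replicate 2 or GFP replicate 3 there were 7 and 6 in the CTNNB1 arm. Calls over all genes fell in that arm from 2730 to 1499 and 1705.

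PTPRO, a receptor phosphatase known to act on EPH receptors, moved most of the list in both arms. It measured 0.685, 0.584 and 0.840 TPM in GFP and 4.26, 3.71 and 3.24 TPM with CTNNB1, and 1.62, 1.76 and 1.76 TPM in shNT1 and 8.99, 8.71 and 8.02 TPM in shAPC. The groups were well apart, with log2 fold changes of 1.47 (SE 0.12, limma adjusted p = 4.05e-05) and 1.82 (SE 0.09, limma adjusted p = 1.13e-06). The PTPRO mean in GFP, 0.703 TPM, was under the minimum of 1 TPM. The gene entered the test of the CTNNB1 arm only through the higher CTNNB1 libraries. MMP14, a membrane protease that can cleave EPHA2, had means of 1.52 ± 0.0773 TPM in GFP, 2.81 ± 0.180 in CTNNB1, 2.86 ± 0.407 in shNT1 and 4.11 ± 0.324 in shAPC (SD, n = 3 each), and rose in both arms with log2 fold changes of 0.59 and 0.41 (limma adjusted p = 0.00199 and 0.0241). FYN, a SRC-family kinase recruited to EPH receptors and B ephrins, averaged 12.8 TPM in GFP and 18.2 TPM in CTNNB1 and rose (0.47, limma adjusted p = 0.000750). NCK2, an adaptor of phosphorylated B ephrins, rose there from 20.1 to 26.8 TPM (0.40, limma adjusted p = 0.00173). In the shAPC arm KALRN, which encodes kalirin, fell from 2.82 to 1.44 TPM (-0.65, limma adjusted p = 0.00207). RHBDL2, a rhomboid protease that can cleave a B ephrin, fell from 15.2 to 9.84 TPM (-0.58, limma adjusted p = 0.00555), and RASA1, a RAS GTPase-activating protein that binds EPHB2, from 65.9 to 47.7 TPM (-0.46, limma adjusted p = 0.000860).

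**Figure D4:**
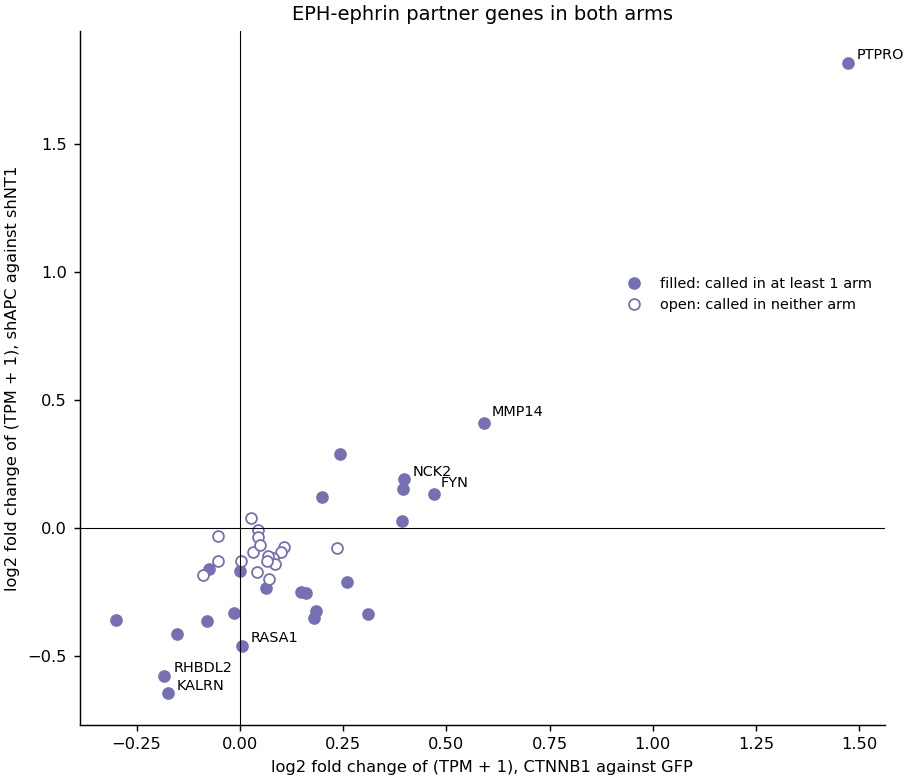
Log2 fold change of TPM + 1 of the 42 tested partner genes in the CTNNB1 arm (x axis) and the shAPC arm (y axis), with filled points for genes called in at least 1 arm, open points for genes called in neither and the genes with the largest called changes named. PTPRO lies far to the upper right at 1.47 and 1.82, and most of the other points lie below 0 on the y axis.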

How the data were processed

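RNA was extracted from HT-29 cells and mRNA libraries were made with a Roche Kapa kit, per the labels' protocols. The submitters' processing notes name STAR 2.7.3a, hg38 and limma. The annotation, the TPM tool and the use of strand are not given in the sources used here. The authors deposited 1 table of TPM values, 1 column per library, and each column sums to 1000000. The authors also deposited a limma table per comparison, with log2 fold changes, p-values and, unused here, a score column of log-odds and one of moderated t. Depth is unknown, so no counting interval or detection floor is given.

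Each arm was fitted alone on log2(TPM + 1) by limma 3.58.1 (R 4.3.3), with a variance trend and no block, for genes with a mean of at least 1 TPM over the 6 libraries of the arm. Benjamini-Hochberg adjustment ran over all genes tested, and calls had an adjusted p under 0.05. The difference between the arms used 1 fit of all 12 libraries. The fits were also run on simulated libraries with independent noise, which do not copy the movement of members with the library described above. No result here rests on that run. Gene names in 27 rows had turned into dates, and these rows were kept under that name.

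The members and lists were chosen with earlier results of these data known. Named were all members, expressed relatives, the 4 partner genes with the largest called change per arm, and the 3 genes most correlated with EPHB2, EPHB3 and EFNB2. Ensembl identifiers come from the authors' deposited tables, coordinates from GENCODE 29 (GRCh38), and sequences from RefSeq (GRCh38.p14), with all 10 members matched. Motifs were chosen after the values were known. The alternatives tried were no filter, a mean of at least 5 TPM, 0.1 as the pseudocount, median-ratio scaling, quantile normalization, no variance trend, the replicate number as a block, 1 fit of all 4 groups, and leaving out each library. The split of the partner genes by class is not reported here.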

Additional observations from a re-analysis of the deposited data

Results flagged for a closer look

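Each result here differed between the CTNNB1 arm and the shAPC arm by the test of the difference itself, in the limma fit of all 12 libraries. Of all 11741 genes, 16.1% were called, 13.3% with a positive and 2.76% with a negative difference, and the median difference was 0.11. Of 42 tested partner genes 13 were called, all 13 positive, and only those already named above are given. The arms also differ in vector, collection day and doxycycline, which cannot be told apart from the perturbations. EFNB2 differed by 0.31 (CTNNB1 effect minus shAPC effect, log2, limma adjusted p = 0.0348). All 3 CTNNB1 libraries lay above GFP, and the shAPC and shNT1 libraries overlapped. The EFNB2 call was kept in only 2 of 7 other settings (limma adjusted p up to 0.11) and 5 of 12 fits with a library left out. EFNA5 differed by 0.47 (limma adjusted p = 0.0193), being 17.4 TPM in GFP, 17.96 with CTNNB1, 17.0 in shNT1 and 12.5 in shAPC on average. It was at 0.36 under median-ratio scaling and 0.46 without GFP replicate 2, with a limma adjusted p of 0.051 each. RASA1 differed by 0.46 (limma adjusted p = 0.00265), at 57.5 and 57.7 TPM in GFP and CTNNB1 and 65.9 and 47.7 TPM in shNT1 and shAPC. It kept its call in every alternative run, at 0.35 under median-ratio scaling. KALRN differed by 0.47 (limma adjusted p = 0.0208), and by 0.44 and 0.45 without GFP replicate 2 or shAPC replicate 3 (limma adjusted p = 0.06 and 0.051). FYN differed by 0.34 (limma adjusted p = 0.0246), by 0.23 under median-ratio scaling (limma adjusted p = 0.074) and by 0.21 under quantile normalization (limma adjusted p = 0.11). The FYN call was also lost without GFP replicate 1 (0.32), GFP replicate 2 (0.34), shNT1 replicate 1 (0.29), shAPC replicate 2 (0.30) or shAPC replicate 3 (0.33).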

How the results depend on the processing

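EPHB2 and EPHB3 kept their direction and their calls in both arms under every alternative that could test them and with each library left out. A mean of at least 5 TPM left EPHB2 untested in both arms and in the fit of all 12 libraries. EPHB2 ranged from 0.98 to 1.39 in the CTNNB1 arm and from 1.11 to 1.54 in the shAPC arm, and EPHB3 from 0.71 to 0.87 and from 0.46 to 0.67. EFNB1, EPHA1 and EFNA4 kept their shAPC calls throughout. In the CTNNB1 arm EFNB1 missed the threshold with no filter (-0.26, limma adjusted p = 0.062). No alternative reversed a called member. With no filter 12 partner genes were called in the shAPC arm, where 1929 of all 17968 genes were called. Replicate numbers are shared by the groups, and the labels do not say whether they pair the libraries. In the CTNNB1 arm, deviations of same-numbered libraries had correlations from 0.076 to 0.209, against -0.195 to 0.076 for different numbers. In the shAPC arm the correlations ran from -0.21 to 0.002 for the same number and from -0.134 to 0.206 for different numbers. The arms go opposite ways, so these values do not settle the pairing. Under the replicate block limma called 11 partner genes in the shAPC arm, and 5 and 6 members in the CTNNB1 and shAPC arms. Over all genes it called 2895 and 1767 in those arms, against 2730 and 2615 as reported. Under the block the KALRN difference between the arms kept its size of 0.47 and missed the threshold (limma adjusted p = 0.064). A difference between the arms was called there for 1145 genes, against 1885 as reported, and for 0 members. limma also called 0 members for that difference with no filter and with no variance trend. At an unadjusted p under 0.05 these settings had 5 (block), 4 and 4 members. With each library left out in turn, calls in the CTNNB1 arm ranged from 1499 to 3190 genes, 2 to 6 members and 6 to 13 partner genes. Those in the shAPC arm ranged from 1484 to 2252 genes, 5 to 7 members and 11 to 17 partner genes. Differences between the arms ranged from 995 to 2143 genes and 0 to 2 members. The cause of these shifts was not tested. TPM keeps no depth, so the precision of weakly expressed genes such as EPHB2, EFNA3, KALRN and PTPRO rests on 3 libraries per group.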

Other observations

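EFNA4, EFNA3 and EFNA1 are neighbours on the forward strand of chromosome 1, between 155063731 and 155134857 (GRCh38, GENCODE 29), and this stretch was looked at after their values had been seen. In the shAPC arm EFNA4 was at 0.61, EFNA3 at 0.45 and EFNA1 at 0.27 on the log2 scale, and all 3 were called higher, though the EFNA3 call was lost under 4 of 7 other settings and in 5 of 6 fits with a library left out. In the CTNNB1 arm EFNA4 was at 0.27 and EFNA1 at 0.25, both called, and EFNA3 was at 0.19 (limma adjusted p = 0.512). The EFNA4 call in that arm was kept in 6 of 8 other settings and 3 of 6 fits with a library left out. For EFNA1 it was kept in 6 of 8 and 2 of 6. Of 9 other genes of the expression table within 50000 bases of the stretch, 5 were expressed well enough to be tested. ADAM15, a membrane metalloprotease gene that lies just before EFNA4, fell in both arms (-0.34, limma adjusted p = 0.0108, and -0.28, limma adjusted p = 0.0312). It averaged 74.0 TPM in GFP and 58.3 TPM with CTNNB1, and 50.2 TPM in shNT1 and 41.1 TPM in shAPC. ZBTB7B, SLC50A1, DPM3 and KRTCAP2 were not called in either arm, with shAPC values of 0.03, -0.13, 0.18 and -0.03. Genes that share a locus share sequence context and, for EFNA4 and EFNA3, annotated exons of AL691442.1. The part of either in these values was not tested.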
